A study of Mus musculus with 7 samples.

Results

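The mouse embryonic stem cells described here carry the Inv1 inversion near Epha4. In them, windows named for Wnt6 and Wnt10a, for Ihh and for Pax3 met each other more often than in limb buds. The same held for a stretch at 75.35 to 75.5 Mb for which no gene is named. The Wnt and Pax3 windows lie over 3 Mb apart in all maps but Inv4. Their contact was 4.49 times the mean of its distance in stem cells, against 1.97 to 3.97 times in 6 limb bud maps. The contact was concentrated in small spots: a single 10 kb bin of the Pax3 window reached 13.1 times the mean with the Wnt window in stem cells, against 3.08 in Inv1 limb buds.

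The members are the bin pairs between 4 windows of chromosome 1 (build mm9): 74.78 to 74.88 Mb (Wnt6 and Wnt10a, here the Wnt window), 74.93 to 75.05 Mb (the Ihh window), 75.35 to 75.5 Mb (no gene is named for it, here the unnamed window) and 78.08 to 78.25 Mb (the Pax3 window). These windows were selected on contact values of the same 7 maps, with the stem cell map in view, so the difference between stem cells and limb buds is given as a description and not as a test. There are 1079 such bin pairs in 6 window pairs, of 500500 bin pairs between 71 and 81 Mb in each map. All 1079 lay between bins that passed the filter on bins with few listed pairs in each of the 7 maps. All values below come from the same libraries, so they all describe these maps, including where inside each window the contact lay, what lay around it and how the pairs varied among the limb buds.

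Capture Hi-C counts ligation products between pairs of loci within a captured region, here around Epha4. The limb bud libraries were titled Distal and came from forelimb and hindlimb buds of 10 pooled embryos at E11.5, with 1 library each for WT, for the CRISPR/Cas9 inversions Inv1, Inv2, Inv3 and Inv4, and for Inv1DelCTCF, which carries the Inv1 inversion and a deletion that its title names after CTCF. The remaining library was a single mutant stem cell line with the Inv1 inversion (Inv1 ESC), grown in culture. Its title and the series' design text alone set it apart, since its tissue, stage and cell type entries (limb bud, E11.5 and G4 ESC) are the same as for all other libraries. Whether the inversions were carried on 1 or both chromosomes and how far the CTCF deletion reaches were not stated in the labels used here. The names of the deposited Inv2, Inv3 and Inv4 maps hold the word hom, which no label explains. There was no WT stem cell library among the 7, so stem cells were set against Inv1 limb buds, which carry the same inversion.

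Wnt6 and Wnt10a encode secreted Wnt ligands, which bind Frizzled receptors and are made by epithelia such as the ectoderm that covers the limb bud. Ihh encodes a hedgehog ligand that is made by maturing cartilage cells and bound by the receptor Patched. Pax3 encodes a paired-box transcription factor of neural crest cells and of the muscle progenitors that enter the limb. In pluripotent cells, such developmental genes are commonly silent and bound at CpG-rich promoters by Polycomb proteins, and long-range contact between Polycomb-bound loci is known from these cells. No chromatin mark, bound protein or transcript was measured in the maps used here.

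Promoter sequences are shown as a description that the choice of windows did not use, and any link to the contacts was not tested. RefSeq promoters were found for 2 of the 4 named genes, and the 250 bases before each start are printed 5′ to 3′ in the direction of the gene, with each CpG in capitals. They lie at chr1:74771642-74771891 on the + strand (Wnt6) and chr1:74951673-74951922 on the - strand (Ihh) of GRCm38.p6, which is not the build of the contact maps.
Wnt6: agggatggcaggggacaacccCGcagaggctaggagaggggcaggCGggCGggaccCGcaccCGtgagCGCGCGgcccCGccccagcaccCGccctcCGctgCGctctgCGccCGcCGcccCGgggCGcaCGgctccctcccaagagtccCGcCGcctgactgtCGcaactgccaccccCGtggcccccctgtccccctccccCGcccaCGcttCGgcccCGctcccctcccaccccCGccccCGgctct
Ihh: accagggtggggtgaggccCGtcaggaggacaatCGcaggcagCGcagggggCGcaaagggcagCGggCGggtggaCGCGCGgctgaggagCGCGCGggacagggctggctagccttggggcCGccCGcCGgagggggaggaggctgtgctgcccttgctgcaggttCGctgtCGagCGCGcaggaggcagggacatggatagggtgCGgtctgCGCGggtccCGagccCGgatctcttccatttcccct
The Wnt6 promoter held 28 CpG and was 79.6% G or C, and the Ihh promoter held 24 CpG and was 72.0% G or C. Over all 32851 promoters of the table the medians were 6 CpG and 52.4%. As many CpG as at Wnt6 were present in 7.61% of all promoters, and as many as at Ihh in 12%. The core motif of CTCF, a DNA-binding protein of domain borders, was searched on both strands. It was found in neither stretch and in 7.17% of all promoters.

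Each map lists a balanced signal for pairs of 10 kb bins. Contact is given as observed over expected, the summed signal of a window pair over the sum of the map's mean signal at the same distances on that map's own chromosome, so that 1 is average contact for the distance. Inverted bins were first turned back to reference order. The right end of the inverted segments, 75.89 Mb, was fitted to the Inv1 limb and Inv1 ESC maps and was assumed to be the same in Inv2, Inv3 and Inv4. With this right end, the left ends lie at 75.29 Mb for Inv1 and at 75.14 Mb for Inv2. For Inv3 and Inv4 they lie at 74.95 and 74.81 Mb, and the error of these ends was not estimated. The unnamed window therefore lies inside every inversion, the Ihh window inside Inv4 and mostly inside Inv3, and the Wnt window partly inside Inv4, with 3 of its 10 bins outside. The Pax3 window lies outside them all. The WT, Inv1, Inv1DelCTCF and Inv1 ESC maps held 3903613 to 5155259 read pairs. The Inv2, Inv3 and Inv4 maps had been deposited after subtraction of WT signal, 28.8% to 31.3% of their listed values were negative, and their intervals are approximate. All intervals in brackets are 95% counting intervals; they do not hold the spread between cultures or embryos, and read pairs without molecular identifiers may include copies of 1 molecule. Conditions were not tested against each other, since each had a single library.

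The Wnt and Pax3 windows are 3.335 Mb apart, except in Inv4, where they are 2.628 Mb apart. Their observed over expected contact was 1.97 (1.75 to 2.204) in WT limb, 2.31 (2.04 to 2.60) in Inv1 limb, 2.65 (2.36 to 2.98) in Inv1DelCTCF limb, 3.97 (3.23 to 4.70) in Inv2 limb, 2.17 (1.49 to 2.84) in Inv3 limb, 3.64 (3.23 to 4.04) in Inv4 limb and 4.49 (4.201 to 4.79) in Inv1 ESC. The stem cell value was the highest of the 7, but its interval overlapped that of Inv2 limb. It rested on 919 read pairs, against 267 in Inv1 limb, a ratio in observed over expected of 1.95 (1.70 to 2.24). With the negative values of the Inv2 map set to 0, that map's value was 2.73.

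The Ihh and Pax3 windows are 3.175 Mb apart, except in Inv3 (2.483 Mb on average) and Inv4 (2.455 Mb). Their contact was 2.197 (2.01 to 2.40) in WT limb, 2.21 (1.99 to 2.45) in Inv1 limb, 2.53 (2.29 to 2.80) in Inv1DelCTCF limb, 2.54 (1.96 to 3.12) in Inv2 limb, 2.56 (2.198 to 2.92) in Inv3 limb, 2.78 (2.43 to 3.13) in Inv4 limb and 3.81 (3.59 to 4.05) in Inv1 ESC. The intervals of neighbouring limb maps in this order all overlapped, and the stem cell interval lay above them. The stem cell map held 1070 read pairs and the Inv1 limb map 362, and the ratio was 1.73 (1.53 to 1.95).

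The unnamed and Pax3 windows were at 2.07 (1.93 to 2.23) in WT limb, where they are 2.74 Mb apart, and at 2.94 (2.76 to 3.13) in Inv1 limb, where the inversion brings them to 2.41 Mb. Inv1DelCTCF limb was at 3.01 (2.83 to 3.19), Inv2 limb at 2.76 (2.36 to 3.15), Inv3 limb at 2.41 (1.98 to 2.85) and Inv4 limb at 2.13 (1.76 to 2.495). Inv1 ESC was at 4.69 (4.49 to 4.90), above every limb interval. The ratio to Inv1 limb at the same distance was 1.595 (1.48 to 1.72), from 2070 and 1036 read pairs, while that to WT limb was 2.26 (2.08 to 2.47).

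Contact among the Wnt, Ihh and unnamed windows was mostly near or below average in limb buds and above average in stem cells. The Wnt and unnamed windows stood out: their contact was 0.776 (0.738 to 0.816) in WT limb, 0.675 (0.627 to 0.726) in Inv1 limb, 0.690 (0.640 to 0.743) in Inv1DelCTCF limb, 1.02 (0.907 to 1.14) in Inv2 limb, 1.01 (0.914 to 1.098) in Inv3 limb, 0.585 (0.509 to 0.661) in Inv4 limb and 2.15 (2.07 to 2.23) in Inv1 ESC. Thus every limb value was near or below the mean of its distance, and the stem cell value was over 2 times that mean. At the same distance of 0.925 Mb, the stem cell map held 2775 read pairs and the Inv1 limb map 738, a ratio of 3.18 (2.93 to 3.45).

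The Ihh and unnamed windows were at 0.957 (0.926 to 0.990) in WT limb, 0.935 (0.890 to 0.982) in Inv1 limb, 1.01 (0.965 to 1.07) in Inv1DelCTCF limb, 1.19 (1.09 to 1.30) in Inv2 limb, 0.766 (0.692 to 0.840) in Inv3 limb, 0.928 (0.853 to 1.004) in Inv4 limb and 1.61 (1.56 to 1.67) in Inv1 ESC. The ratio of stem cells to Inv1 limb was 1.72 (1.63 to 1.83). The Wnt and Ihh windows, the nearest pair at 0.16 Mb in WT, were at 0.863 (0.839 to 0.887) in WT limb, 0.834 (0.810 to 0.859) in Inv1 limb, 0.866 (0.839 to 0.892) in Inv1DelCTCF limb, 0.944 (0.886 to 1.001) in Inv2 limb, 0.732 (0.596 to 0.867) in Inv3 limb, 0.696 (0.628 to 0.764) in Inv4 limb and 1.35 (1.33 to 1.38) in Inv1 ESC, with a ratio to Inv1 limb of 1.62 (1.57 to 1.68). For both of these pairs, all limb maps lay below the stem cell interval.

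**Figure D1:**
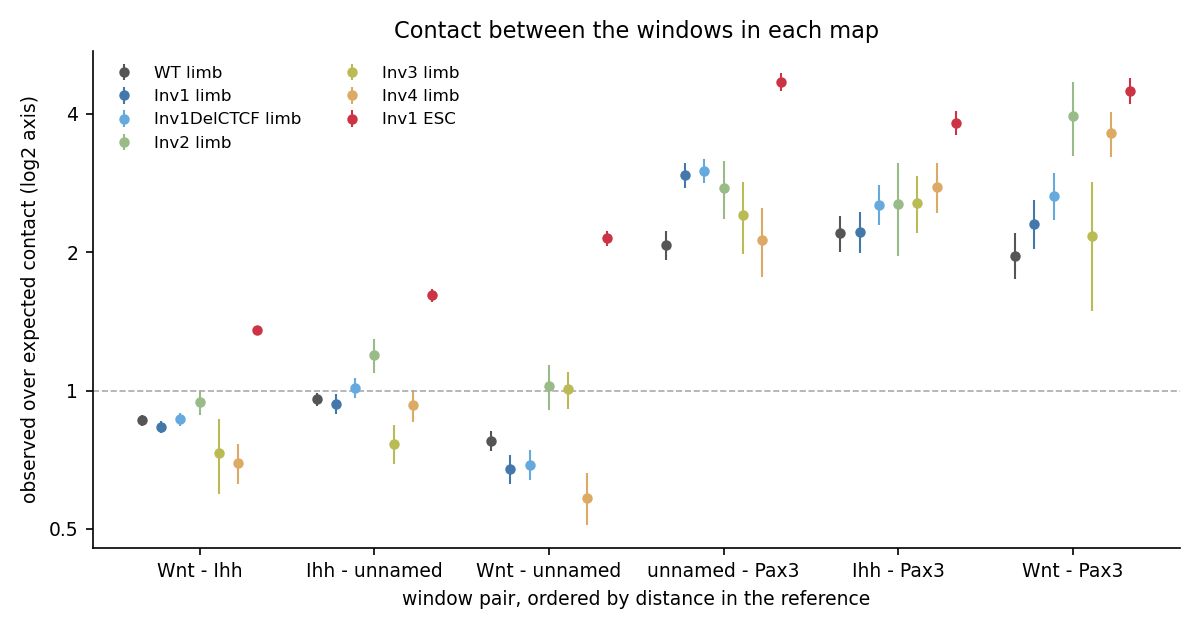
Observed over expected contact (log2 axis) of each of the 6 window pairs in each of the 7 maps, 1 library each, with 95% counting intervals; those of Inv2, Inv3 and Inv4 are approximate. The dashed line is average contact for the distance. Inv1 ESC (red) is the highest of the 7 in every pair, and the Wnt and Pax3 pair is the one where its interval meets that of a limb map.

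Over the 6 pairs, stem cells were above all 6 limb maps in 6 pairs, and their interval was above every limb interval in 5. Without the 3 limb maps that had WT signal subtracted, it was above the others in 6. The first count depends on measuring distance on the rearranged chromosome: with distances in reference order, which are not those of the inverted chromosomes, it was 3. At least 2-fold over Inv1 limb was reached by 1 pair, Wnt and unnamed, and at least 1.5-fold by all 6, with a median ratio of 1.72. In the same 2 maps, 1.44% of 2640 squares of 10 by 10 bins at distances of 0.2 to 3.3 Mb were at least 2-fold higher in stem cells, 11.4% were at least 1.5-fold higher, and the median ratio was 1.02. Against WT limb, 3 of the pairs were at least 2-fold higher and the median ratio was 2, and against Inv1DelCTCF limb 1 pair was, with a median of 1.58. The windows were chosen for this contrast, so these shares only place the values.

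The square with the highest ratio among those 2640 lay on the Wnt and unnamed windows, at 74.8 to 74.9 Mb and 75.38 to 75.48 Mb in reference order, with 2.39 in stem cells, 0.645 in Inv1 limb and a ratio of 3.70. The next 4 had ratios of 2.58 to 2.75 and lower stem cell contact, of 0.845 to 1.19. One of them joined the unnamed window to 74.1 to 74.2 Mb, at 1.19 in stem cells and 0.457 in Inv1 limb. The other 3 paired 76.6 to 77.1 Mb with 78.7 to 79 Mb and touched none of the windows; their limb values were 0.307 to 0.409. Of the 38 squares at least 2-fold higher, 30 held no window bin, and these had stem cell contact of 0.537 to 2.49 with a median of 0.893. The 3 with window bins on both sides were at 1.24 to 2.39, so high ratios also occurred away from the windows, mostly at lower contact.

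Limb buds also held raised contact of the Pax3 window. Of the 18 limb values with the Wnt, Ihh and unnamed windows, 17 were at least 2, the exception being Wnt in WT. With negative values of the subtracted maps set to 0, more values fell below 2. These were Wnt in Inv3 (1.75), Ihh in Inv2 (1.98) and unnamed in Inv3 (1.94) and Inv4 (1.805). The other values of the subtracted maps stayed above 2. Squares of 10 by 10 bins at 2.4 to 3.4 Mb reached 2 in 4.74% of cases in WT limb, 4.35% in Inv1 limb, 5.25% in Inv1DelCTCF limb, 9.73% in Inv2 limb, 10.2% in Inv3 limb, 6.27% in Inv4 limb and 4.23% in Inv1 ESC. The share was thus not larger in stem cells, while the window pairs were higher there. The bins around the Pax3 pairs were raised in both tissues, at 1.48 to 1.87 in stem cells and 1.56 to 2.41 in Inv1 limb.

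The window pairs stood further above the bins around them in the stem cell map than in the limb maps. The windows were selected with the stem cell map in view, which favours that map in this ratio. Bins of the 4 windows were left out. The surroundings paired bins within 200 kb of 1 window with bins within 200 kb of the other. For Wnt and Pax3 they were at 1.64 (1.56 to 1.71) in stem cells and 1.56 (1.47 to 1.66) in Inv1 limb, so the contact over the surroundings was 2.74 (2.53 to 2.97) in stem cells and 1.48 (1.29 to 1.69) in Inv1 limb. For Ihh and Pax3 it was 2.58 (2.39 to 2.78) and 1.405 (1.25 to 1.58), and for unnamed and Pax3 2.51 (2.38 to 2.64) and 1.22 (1.14 to 1.31).

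The nearer pairs differed in the same direction. Wnt and unnamed were at 2.597 (2.49 to 2.71) times their surroundings in stem cells and 0.798 (0.740 to 0.861) in Inv1 limb, Ihh and unnamed at 1.33 (1.29 to 1.38) and 0.747 (0.710 to 0.785), and Wnt and Ihh at 1.42 (1.39 to 1.45) and 0.894 (0.865 to 0.924). In Inv1 limb these 3 pairs lay below their surroundings and in stem cells above. For Wnt and Ihh and for Ihh and unnamed, the stretches around the 2 windows overlap. Their surroundings therefore include bin pairs down to 2 bins apart, nearer than the windows themselves. In Inv1 limb, those of Ihh and unnamed held 37068 read pairs in 1170 bin pairs, against 1624 in 180 for the windows. The stretch around the unnamed window also crosses the left end of Inv1, at 75.29 Mb. The surroundings themselves were 0.777 to 1.05 times as high in stem cells as in Inv1 limb over the 6 pairs, the lowest being those of unnamed and Pax3. For unnamed and Pax3, at 1.87 (1.82 to 1.92) in stem cells and 2.41 (2.34 to 2.48) in Inv1 limb, the lower surroundings thus account for part of the higher ratio in stem cells. Among the other limb maps, the ratio ranged from 0.406 (Wnt and unnamed in Inv4) to 2.12 (Wnt and Pax3 in Inv2), and in none of the 6 pairs did it reach the stem cell ratio.

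**Figure D2:**
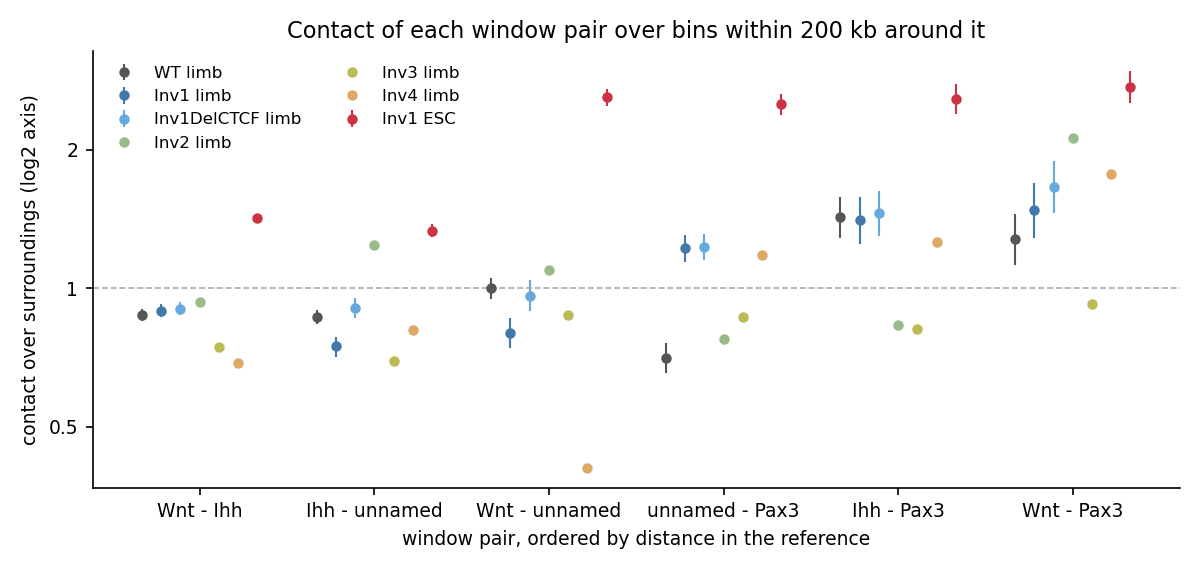
Observed over expected contact of each window pair divided by that of the bins within 200 kb around it (log2 axis), 1 point per map, with 95% counting intervals for the 4 maps without subtracted WT signal. Inv1 ESC (red) runs from 1.33 to 2.74 and is the highest in each pair, with windows that were selected with this map in view. For Wnt and Ihh and for Ihh and unnamed, the surroundings also hold bin pairs close to each other.

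Contact among the bins of 1 window was not higher in stem cells than in Inv1 and WT limb buds for 3 of the 4 windows, the exception being the unnamed one. Contact inside the Pax3 window, for bins at least 2 bins apart, was 0.8999 in stem cells, 1.07 in Inv1 limb and 1.08 in WT limb. Inside the Wnt window it was 1.05, 1.12 and 1.12, and inside the Ihh window 1.11, 1.13 and 1.19. Inside the unnamed window it was 1.32, 1.18 and 1.29. The differences inside windows were thus small beside those between windows.

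The Pax3 window held a single peak, and it was the same bins that met all 3 partners. Its bin at 78.19 to 78.2 Mb was the highest of the window with each of them in stem cells: 13.1 with the Wnt window (177 read pairs), 8.66 with the Ihh window (175) and 11.4 with the unnamed window (337). In Inv1 limb the same bin was at 3.08 (25 read pairs), 2.04 (24) and 3.65 (90), and in WT limb at 2.74, 2.43 and 3.001. The stem cell medians over the bins of the window were 3.31, 3.03 and 3.85, against 2.33, 2.19 and 2.78 in Inv1 limb, so the difference was smaller over the rest of the window than in this bin.

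The peak spanned about 50 kb. Bins from 78.18 to 78.22 Mb were between 5.82 and 13.1 with the 3 windows in stem cells, and the bins at 78.17 and 78.22 Mb were between 3.36 and 5.17. At the left edge of the Pax3 window, stem cell contact with the Wnt window was 0.983 in the first bin inside and 1.505 in the bin before it, and at the right edge it was 3.38 inside and 1.76 outside. The left edge thus lay on low contact, while the right edge was still at the level of the window's median bin. In Inv1 limb the highest bin of the window was a different one for each partner, at 78.21, 78.22 and 78.14 Mb, with 3.11, 2.85 and 3.82.

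**Figure D3:**
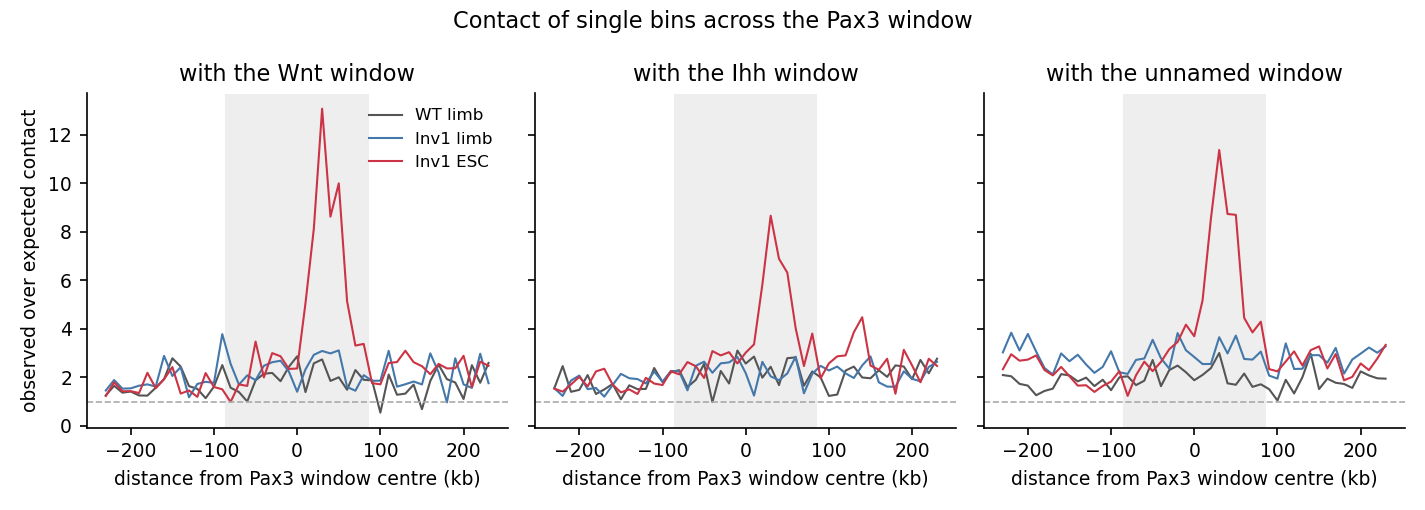
Observed over expected contact of each 10 kb bin across the Pax3 window (grey) and its flanks with the Wnt, Ihh and unnamed windows, by distance from the window's centre in kb, for Inv1 ESC, Inv1 limb and WT limb. The stem cell line peaks at the same bin in all 3 panels, at 13.1, 8.66 and 11.4, and the limb lines stay below 4.

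In the Wnt window, the bin of highest stem cell contact was 74.84 to 74.85 Mb with both the Pax3 window (6.51, 112 read pairs) and the unnamed window (3.32, 350 read pairs). With the Ihh window it was 74.81 to 74.82 Mb (1.79, 1279 read pairs). Inv1 limb had 3.48, 0.860 and 0.907 in these bins. With the Pax3 window, the first bin of the Wnt window was at 2.93 and the bin before it at 2.30, while its last bin was at 4.13 and the one after it at 3.67. Contact was thus low on the side away from Ihh and still high on the side towards it.

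In the Ihh window the highest bin was its first, at 74.93 to 74.94 Mb, with all 3 partners: 6.45 with the Pax3 window (170 read pairs), 2.62 with the unnamed window (483) and 2.199 with the Wnt window (2021). Inv1 limb had 2.73, 0.901 and 1.097 there. Contact did not end at this edge. The 4 bins before it, which belong to no window, were at 4.63 to 5.11 with the Pax3 window in stem cells and 2.25 to 2.81 in Inv1 limb, and within the window the stem cell values went down to 2.05 at 75.02 Mb. The peak assigned to Ihh therefore sits at the edge of its window and reaches into the gap towards the Wnt window.

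By RefSeq gene order, Cdk5r2 (an activator of the kinase Cdk5), Fev (a transcription factor of the ETS family that serotonergic neurons need) and Cryba2 (a crystallin) lie between Wnt10a and Ihh. No file used here gives gene positions on mm9, so which of these genes, or Ihh itself, the bins at 74.89 to 74.95 Mb hold was not determined. The window is called Ihh because the rule names it so. From 74.97 to 75.02 Mb, further inside the window, stem cell contact with the Pax3 window was 3.53 to 4.03, against 2.18 to 2.47 in Inv1 limb.

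In the unnamed window, the highest stem cell bin was 75.39 to 75.4 Mb with both the Pax3 window (6.51, 179 read pairs) and the Ihh window (2.06, 265 read pairs), and 75.42 to 75.43 Mb with the Wnt window (2.88, 208 read pairs). Inv1 limb had 2.87, 0.870 and 0.603 in these bins. The median bin was at 4.56 with the Pax3 window in stem cells, against 3.004 in Inv1 limb and 2.10 in WT limb. At its left edge the first bin inside was at 4.41 and the bin before it at 3.95, and at its right edge the values were 4.11 and 3.29. The window thus has no sharp border in these data.

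**Figure D4:**
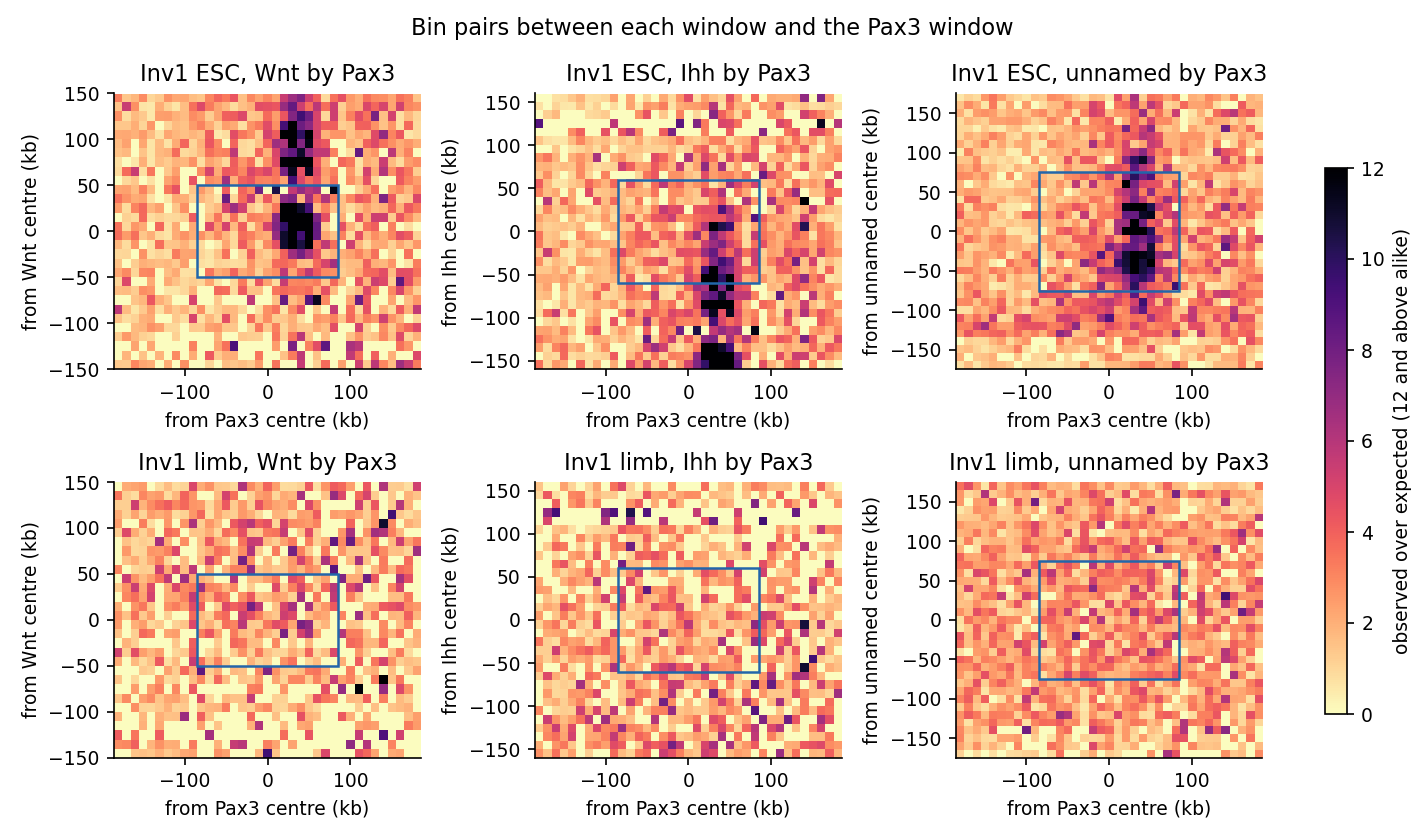
Observed over expected contact of single bin pairs between the Wnt, Ihh and unnamed windows (rows, by distance from the window's centre) and the Pax3 window (columns), in Inv1 ESC (top) and Inv1 limb (bottom), with values of 12 and above in the darkest colour. Boxes mark the windows; the dark columns in the stem cell panels are the bins around 78.19 Mb, and the Ihh panel shows them running across the lower edge of its box.

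Single bin pairs gave the most local view and the thinnest counts. In stem cells the highest bin pair of the Ihh and Pax3 windows was at 29.5, between 74.93 and 78.19 Mb, with 49 read pairs. That of the Wnt and Pax3 windows was at 26.3, between 74.84 and 78.19 Mb, with 31 read pairs, and that of the unnamed and Pax3 windows at 18.3, between 75.39 and 78.19 Mb, with 35 read pairs. In Inv1 limb the highest of the same 3 window pairs were 8.49, 7.88 and 8.44, in other bin pairs, from 3, 4 and 13 read pairs.

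Bin pairs with at least 5 times the mean were counted for the 3 pairs with Pax3. For Wnt and Pax3, 52 of 170 reached it in stem cells and 17 in Inv1 limb, for Ihh and Pax3 44 of 204 and 15, and for unnamed and Pax3 86 of 255 and 21. Of all bin pairs at 2.4 to 3.4 Mb, 1.03% reached it in stem cells and 1.51% in Inv1 limb, and the windows were chosen for their contact. At 1 to 4 read pairs in the median limb bin pair, single limb values carry little weight.

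Squares of 5 by 5 bins around the stem cell peaks concentrated the difference. They were placed on the stem cell maximum, which favours that map. The Wnt and Pax3 square (74.82 to 74.87 and 78.17 to 78.22 Mb) was at 11.9 (10.7 to 13.1) in stem cells, from 378 read pairs, against 3.48 (2.67 to 4.45) in Inv1 limb, 2.51 in WT limb, 4.66 in Inv1DelCTCF limb, 6.58 in Inv2 limb, 2.59 in Inv3 limb and 5.54 in Inv4 limb. Here no limb interval reached that of stem cells, unlike for the whole windows. The Ihh and Pax3 square was at 9.72 (8.76 to 10.8), against 2.43 to 4.92 in the limb maps, and the unnamed and Pax3 square at 9.71 (8.84 to 10.6), against 1.80 to 3.12.

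Over Inv1 limb, the squares were higher by 3.41 (2.60 to 4.52) times for Wnt and Pax3, 4.002 (2.99 to 5.44) for Ihh and Pax3 and 3.12 (2.53 to 3.86) for unnamed and Pax3. For Wnt and unnamed the ratio was 4.18 (3.47 to 5.08), for Ihh and unnamed 3.06 (2.58 to 3.63) and for Wnt and Ihh 1.91 (1.80 to 2.04). These ratios favour stem cells by the placing of the squares. The nearest pair had the smallest ratio in these squares.

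The contacts of the Pax3 peak were then followed along the captured region. The anchor was the 50 kb at 78.17 to 78.22 Mb, which was placed on the highest stem cell contact with the Wnt window and is also the peak with the Ihh and unnamed windows. High stem cell values at these windows therefore follow from the choice of anchor, and the profile describes their shape and the level elsewhere. In all, 953 positions, each a mean over 3 bins, were read at least 200 kb from its centre. The median was 0.989 in stem cells and 0.920 in Inv1 limb. The 25 highest positions in stem cells fell into 4 runs: 74.81 to 74.87 Mb (up to 14.0), 74.89 to 74.96 Mb (up to 11.4), 75.36 to 75.47 Mb (up to 11.4) and a single position at 75.5 Mb (6.92). All of them were in or beside the 3 windows, 20 inside, and the highest of all other positions was 6.61, at 74.8 Mb. The Wnt and Ihh runs were thus separated by lower values, of 5.18 and 6.03 at 74.87 and 74.88 Mb. The median position was near the mean of the distance. Away from the windows, stem cell values lay both below that mean (for example 0.465 at 77.29 Mb) and above it (for example 3.31 at 74.15 Mb).

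In Inv1 limb the 25 highest positions of the same anchor were also mostly at 74.81 to 74.86 Mb and 75.33 to 75.56 Mb, with 17 inside the windows, but reached 4.05 at most. In WT limb they fell into 6 runs between 74.89 and 75.75 Mb, with 4 positions inside the windows, and reached 3.38. The limb buds thus also had raised contact in the same part of chromosome 1, at a lower level. Between the Ihh and unnamed windows it fell to 0.807 in Inv1 limb (75.08 Mb) and 0.687 in WT limb (75.11 Mb). The stem cell values there went down to 1.56 (75.17 Mb).

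**Figure D5:**
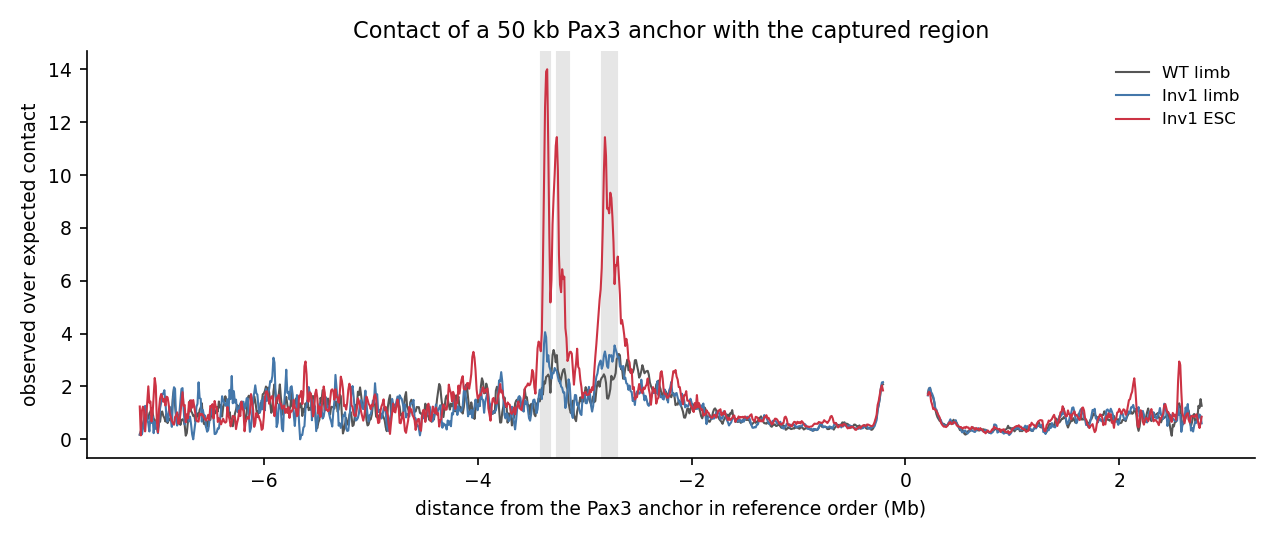
Observed over expected contact of the 50 kb Pax3 anchor with positions along the captured region, by distance from the anchor in reference order (Mb), for Inv1 ESC, Inv1 limb and WT limb; the 200 kb on either side of the anchor are left out. Grey bands are the Wnt, Ihh and unnamed windows, where the stem cell line reaches 14.0, 11.4 and 11.4, while the limb lines stay at or below 4.05.

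The profile from the Wnt peak (74.82 to 74.87 Mb), which reads the same bin pairs from the other side and was placed on the highest stem cell contact with the Pax3 window, is given for its levels. In stem cells its highest position was at 78.2 Mb, at 14.2, within a run from 78.16 to 78.24 Mb, and 18 of the 25 highest positions lay in the windows. In Inv1 limb the highest was 3.63, at 78.19 Mb, and in WT limb 3.13, at 78.15 Mb. In these limb maps the position of highest contact was thus also in the Pax3 window, at a far lower level. The window was selected on the limb maps too. Positions outside it came close, at 3.05 in Inv1 limb (78.51 Mb) and 2.82 in WT limb (78.45 Mb).

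As a share of all contacts that a window had outside itself, these contacts were small for Pax3 and larger for the others. The Wnt window had 20.3% of its outside contacts with the other 3 windows in stem cells, 11.1% in Inv1 limb and 7.03% (Inv3) to 13.6% (Inv2) over the limb maps. The Ihh window had 17.96% in stem cells and 6.59% (Inv3) to 13.9% (WT) in limb buds, and the unnamed window 9.74% and 5.07% (Inv1) to 8.18% (Inv3). The Pax3 window had 4.03% and 1.71% (WT) to 3.21% (Inv4). In all 4 windows the stem cell share was the highest of the 7 maps, and for the Wnt window most of it, 14.4%, was with the neighbouring Ihh window. These shares follow the distance on each chromosome, which the inversions change.

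Among the limb buds, Inv1 with and without the deletion had close values in these contacts. The ratio of Inv1DelCTCF limb to Inv1 limb ran from 1.02 to 1.151 over the 6 pairs, and its interval included 1 in 5; the exception was Ihh and unnamed, at 1.08 (1.01 to 1.16). WT limb over Inv1 limb had an interval that included 1 in 4 pairs, the exceptions being unnamed and Pax3, at 0.705 (0.640 to 0.775), and Wnt and unnamed, at 1.1498 (1.05 to 1.26). Both exceptions involve the window that the inversion moves, but the other pair with that window, Ihh and unnamed, was at 1.02 (0.965 to 1.09). The pairs whose distance Inv1 leaves as it is were at 0.853 (0.720 to 1.01) for Wnt and Pax3, 0.994 (0.866 to 1.14) for Ihh and Pax3 and 1.03 (0.993 to 1.08) for Wnt and Ihh. Intervals that include 1 do not show that contact was the same.

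In Inv3 and Inv4 parts of the windows changed places. In Inv4, the Wnt and Pax3 windows came to 2.628 Mb and the Ihh and Pax3 windows to 2.455 Mb, with 3.64 and 2.78 at these distances. The Wnt and unnamed windows, 0.55 Mb apart on that chromosome, had the lowest value of all maps, 0.585. Inv3 put the Wnt and Ihh windows 0.852 Mb apart on average, with 2 of the 12 Ihh bins left on the Wnt side, and had 0.732. None of the 3 subtracted limb maps reached the stem cell value in any pair.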

How the data were processed

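The data are 7 capture Hi-C maps, 1 per condition, with groups taken from the sample titles and the series' design text. The deposited maps give 1 signal value per pair of 10 kb bins between 71 and 81 Mb of chromosome 1, balanced by the authors, with Knight-Ruiz balancing, HiCUP and a mapping quality filter read from the file names. The submitters' processing notes name the build mm9 and the tools Bowtie2 2.2.6 and Juicer, whose roles are not given in the sources used here. Further deposited values, of Inv2, Inv3 and Inv4, hold balanced signal minus a share of the WT map (weights 0.423, 0.369 and 0.334), found by comparing their negative values with WT; this step is not described in the labels.

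The windows and lists were chosen with earlier results of these data known. Balanced values without subtraction were whole read pairs times 1 factor per bin. Fitting these factors brought 100% of values under 20 read pairs to within 0.1 of a whole number and gave 5155259 read pairs (WT), 3903613 (Inv1 limb), 3997506 (Inv1DelCTCF) and 4305909 (stem cells). Turned bins used the position sums 151.175, 151.03, 150.833 and 150.697 Mb for Inv1 to Inv4. A bin was kept if its number of listed pairs reached 25% of the median bin's. Expected contact was the mean of the map at each distance. Intervals were exact Poisson for a value, conditional exact binomial for a ratio, and normal for the subtracted maps. The scripts (Python 3.11.15, numpy 2.4.6, scipy 1.17.1) were tested on simulated data. Alternatives changed the expected contact, the summary, the window edges, the balancing, the bin filter, the position sums, the limb map compared, the distance, negative values and the width of the surroundings. Places outside the windows were named as the 5 squares with the highest ratio of stem cells to Inv1 limb. Gene tables of enhancer contact deposited for 5 libraries were not used.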

Additional observations from a re-analysis of the deposited data

How the results depend on the processing

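No paired analysis was possible because each condition is 1 library. All 6 ratios of stem cells to Inv1 limb stayed above 1 under each alternative that gave a value: 1.38 to 1.88 for Wnt and Ihh, 1.59 to 1.96 for Ihh and unnamed, 2.76 to 3.67 for Wnt and unnamed, 1.31 to 2.26 for unnamed and Pax3, 1.51 to 1.91 for Ihh and Pax3, and 1.69 to 2.28 for Wnt and Pax3. Ratios outside their counting interval were as follows. Medians over bin pairs gave 1.38 for Wnt and Ihh, 1.69 for Wnt and Pax3 and 1.31 for unnamed and Pax3. Windows shortened by 1 bin gave 1.72 for Wnt and Ihh and 3.67 for Wnt and unnamed. Recovered read pairs in place of balanced signal gave 1.88 for Wnt and Ihh, 3.56 for Wnt and unnamed and 1.96 for Ihh and unnamed. WT limb gave 2.76 for Wnt and unnamed, 2.28 for Wnt and Pax3 and 2.26 for unnamed and Pax3. Inv1DelCTCF limb gave 1.56 for Wnt and Ihh, 1.69 for Wnt and Pax3, 1.59 for Ihh and unnamed and 1.51 for Ihh and Pax3. The number of pairs at least 2-fold higher was 2 with window bins left out of the expected contact, with shortened windows or with read pairs, 3 against WT limb, and 6 at 1.5-fold. With the expectation taken as a median, 2 of the 6 pairs gave no value, since the median bin pair at their distance holds no read pair. The number of pairs higher in stem cells than in every limb map was 3 with distances in reference order, and 6 with negative values set to 0 or with the segment's right end 10 kb lower or higher, the last 2 chosen after seeing the data. With surroundings of 100 kb in place of 200 kb, 24 of the 42 values of contact over the surroundings stayed the same, 16 moved and 2 crossed 1. Those 2 were 1.02 for Wnt and unnamed in Inv1DelCTCF limb and 1.43 for Wnt and Pax3 in Inv3 limb. The stem cell values with Pax3 fell below their intervals, to 2.41 for Wnt, 2.16 for Ihh and 2.18 for unnamed. They stayed above the limb values of the same pairs. The cause was not tested. At 3 Mb, limb bin pairs hold a few read pairs each, which limits any statement on single bins there.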
